A study of Mus musculus with 6 samples.

Results

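Transcripts of 6 genes of the plasminogen activation system (Plau, Plat, Plaur, Plgrkt, Serpine2 and Serpinb2) were examined in NMuMG cells, an established mouse mammary epithelial line. All 6 listed genes were present among the 18512 entries of the count table. Of these, 5 reached the mean of 20 normalized counts that was required for testing, and all 5 were over it in each of the 3 groups, whereas Serpinb2 was not. The 6 genes were chosen from a list drawn up with earlier results of these data known, so their differences between groups are given as a description and support nothing further.

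RNA-seq was performed on 3 groups with 2 replicates each. The DMSO group received vehicle and the TGF-β group received TGF-β at 5 ng/ml. The TGF-β + 2APB group received TGF-β at 5 ng/ml with 2-aminoethoxydiphenylborane (2APB) at 50 uM. For the RNA-seq treatments, the paper's results name the longest of the TGF-β exposures that its methods list before RNA isolation. 2APB is a modulator of the calcium influx that follows emptying of the endoplasmic reticulum (store-operated entry, SOCE). The paper describes it as blocking the channels ORAI1 and ORAI2 while raising calcium entry through ORAI3. All groups were serum-starved, no group with 2APB alone was analysed here, and the sources used here give more than 1 timing of 2APB relative to TGF-β. An effect of 2APB therefore stands only on top of TGF-β. The study's methods describe the replicates as biological.

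Plasminogen is an inactive circulating precursor that becomes plasmin, a broad protease that dissolves fibrin and cuts matrix proteins, when it is cleaved by urokinase (Plau) or by tissue plasminogen activator (Plat). Urokinase is held at the cell surface by its receptor (Plaur), plasminogen binds surface receptors such as Plgrkt, and serpins that include Serpine2 and Serpinb2 inactivate the activators. In epithelial cells the system is best known for its part in cell migration.

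Library totals lay between 71840570 and 79473182 counts. Every deposited count was an even number, and the smallest count above 0 was 2, so the genes with low counts moved in steps of 2. Among 8 epithelial markers, Krt8, Krt18 and Cdh1 were abundant in all libraries, while Epcam had 52 to 158 counts, Cldn7 had 2 to 6 and Esrp1 had 0 to 4. The summed count of 8 leukocyte markers was 4542 and 1734 in the DMSO libraries, 1212 and 438 under TGF-β, and 510 and 32604 when 2APB was added. The second TGF-β + 2APB replicate thus stood apart, with 29060 counts of Lyz2, the lysozyme of macrophages, although Cd3e was at 2 counts there and at 0 in the other libraries. Endothelial markers summed to 28 to 440 counts, and the 5 fibroblast markers found in the table to 76 to 304. Fewer cells of a type and less RNA per cell cannot be told apart in such bulk samples.

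Promoter windows of 250 bases before to 50 bases after a transcription start were taken from RefSeq (GRCm38.p6) and matched 4 of the 6 genes. Plau and Plat had no entry. The 250 bases before the start are shown, 5′ to 3′ on the strand of the gene, for the receptor that was highest with TGF-β + 2APB (Plaur, chr7:24462233-24462482, plus strand) and for the genes called lower there that had a window (Plgrkt, chr19:29361872-29362121, minus strand, and Serpine2, chr1:79858666-79858915, minus strand). Capitals mark an AP-1 match.
Plaur: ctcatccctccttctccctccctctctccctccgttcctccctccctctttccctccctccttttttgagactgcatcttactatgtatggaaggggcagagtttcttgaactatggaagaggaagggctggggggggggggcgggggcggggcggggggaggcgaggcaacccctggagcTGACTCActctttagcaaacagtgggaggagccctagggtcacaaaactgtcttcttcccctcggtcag
Plgrkt: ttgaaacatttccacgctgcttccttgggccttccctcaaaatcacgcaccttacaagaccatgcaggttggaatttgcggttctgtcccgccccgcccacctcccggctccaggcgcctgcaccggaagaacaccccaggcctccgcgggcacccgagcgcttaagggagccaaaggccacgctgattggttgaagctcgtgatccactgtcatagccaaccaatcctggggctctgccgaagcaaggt
Serpine2: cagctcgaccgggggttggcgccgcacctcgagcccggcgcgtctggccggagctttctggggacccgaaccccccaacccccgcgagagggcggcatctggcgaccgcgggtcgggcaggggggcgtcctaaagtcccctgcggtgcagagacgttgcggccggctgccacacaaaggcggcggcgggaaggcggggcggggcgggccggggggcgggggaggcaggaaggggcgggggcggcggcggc
The AP-1 letters TGANTCA were found in the Plaur window as TGACTCA, 69 bases before the start, but not in those of Plgrkt and Serpine2. The windows of Serpinb2 overlap and share the same match, TGAATCA. The SMAD-binding letters CAGACA and the E-box CAGGTG, which SNAI factors bind, were in none of these windows on either strand. Of 32851 promoters of the same length, 7.81% held the AP-1 letters, 21.0% the SMAD letters and 20.2% the E-box. GC content was 59.3% for Plaur, 60.7% for Plgrkt and 77.7% for Serpine2, beside a median of 52.7% over all promoters. A match is a description of letters and was not tested as a binding site.

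Plau was higher and Plat lower with both agents than with DMSO. Plau, which encodes urokinase (chr14:20836660-20843385, GRCm38, plus strand), had 138 and 149 normalized counts in the DMSO libraries, 852 and 669 under TGF-β, and 1397 and 1181 when 2APB was added. The 3 groups did not overlap, and each library of a group with TGF-β was several times above both DMSO libraries. The share of all genes tested whose groups separate in this way was not counted, here or for the genes below. The fitted log2 fold change was 2.41 (SE 0.17) for TGF-β against DMSO, 3.17 (SE 0.17) for TGF-β + 2APB against DMSO, and 0.76 (SE 0.16) for TGF-β + 2APB against TGF-β. These correspond to 5.3-fold, 8.99-fold and 1.69-fold higher levels.

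Plat, which encodes tissue plasminogen activator (chr8:22757727-22782844, plus strand), had 5699 and 5753 normalized counts in the DMSO libraries, 5069 and 4323 under TGF-β, and 3397 and 3137 when 2APB was added. Its groups did not overlap either, but the order was the reverse of that of Plau, and the TGF-β replicates were further apart than those of the other groups. The log2 fold change of Plat was -0.29 (SE 0.10) for TGF-β against DMSO, a difference that edgeR did not call. It was -0.81 (SE 0.10) for TGF-β + 2APB against DMSO, and -0.52 (SE 0.10) for TGF-β + 2APB against TGF-β. With both agents, Plat was 1.75-fold lower than with DMSO.

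The balance of the activators shifted accordingly. Per kilobase of exon, Plat transcripts exceeded those of Plau 15.7 and 14.7 times in the DMSO libraries and 2.26 and 2.45 times under TGF-β, whereas the ratio was 0.923 and 1.01 when 2APB was added. Plau thus made up 5.99% and 6.39% of the summed activator level in the DMSO libraries, 30.7% and 29.0% under TGF-β, and 52.0% and 49.8% when 2APB was added. With the longest transcript in place of all exons as the length, the Plat to Plau ratio was 24.0 and 22.4, then 3.45 and 3.75, then 1.41 and 1.54, so the fall in the ratio held but Plat remained above Plau in every library.

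**Figure D1:**
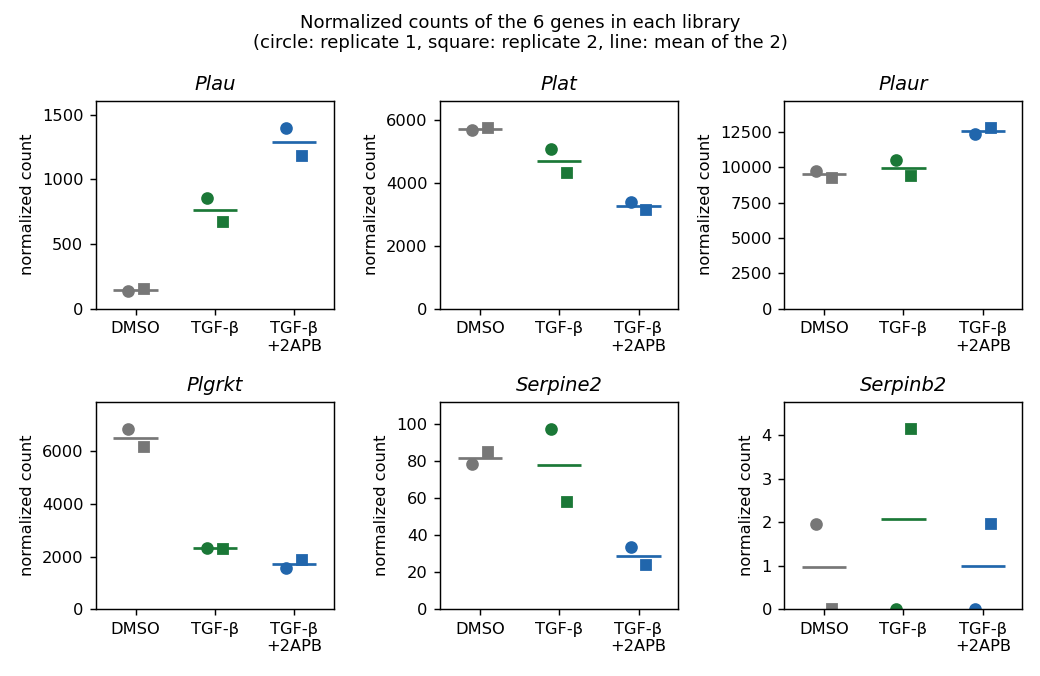
Normalized counts of the 6 genes in each library (vertical axes, linear and starting at 0, 1 panel a gene) by group (horizontal axis), with circles for replicate 1, squares for replicate 2 and a line at the mean of each group. Plau was 138 to 149 with DMSO and 1181 to 1397 with TGF-β + 2APB, while Plgrkt went from 6144 to 6836 down to 1569 to 1875.

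Of the receptors, Plaur was higher and Plgrkt lower with both agents than with DMSO. Plaur, which encodes the GPI-anchored urokinase receptor (chr7:24462484-24475968, plus strand), had 9749 and 9242 normalized counts in the DMSO libraries, 10482 and 9406 under TGF-β, and 12319 and 12776 when 2APB was added. The DMSO and TGF-β libraries overlapped, and both TGF-β + 2APB libraries were above all others. The log2 fold change was 0.07 (SE 0.08) for TGF-β against DMSO, 0.40 (SE 0.08) for TGF-β + 2APB against DMSO, and 0.34 (SE 0.08) for TGF-β + 2APB against TGF-β. Since macrophages also carry Plaur, the last comparisons were repeated without the second TGF-β + 2APB replicate, which held the leukocyte markers, and gave 0.40 (SE 0.14) and 0.31 (SE 0.14), neither called. Both calls were lost in the same way without the first TGF-β + 2APB replicate (0.42, SE 0.14, and 0.33, SE 0.14), and without either DMSO replicate. The part of leukocyte RNA in these differences was not tested. Plau gave 3.31 (SE 0.21) and 0.87 (SE 0.20) in the same way, and the first of these was still called while the second was not.

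Plgrkt, which encodes a membrane receptor that binds plasminogen through a C-terminal lysine (chr19:29348599-29367390, minus strand), had 6836 and 6144 normalized counts in the DMSO libraries, 2341 and 2301 under TGF-β, and 1569 and 1875 when 2APB was added. The groups did not overlap, and the step from DMSO to TGF-β was larger than the step from TGF-β to TGF-β + 2APB. The log2 fold change was -1.48 (SE 0.11), -1.91 (SE 0.11) and -0.43 (SE 0.11) for TGF-β against DMSO, TGF-β + 2APB against DMSO and TGF-β + 2APB against TGF-β. Plgrkt was therefore 2.8-fold lower with TGF-β and 3.77-fold lower with both agents.

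The inhibitors of the list were at low counts. Serpine2, which encodes protease nexin-1, an inhibitor of urokinase and thrombin (chr1:79794197-79861180, minus strand), had deposited counts of 80 and 82 in the DMSO libraries, 100 and 56 under TGF-β, and 34 and 24 when 2APB was added. The DMSO values lay inside the TGF-β range, and both TGF-β + 2APB libraries were below all others. The log2 fold change was -0.07 (SE 0.36), -1.51 (SE 0.38) and -1.44 (SE 0.38) in the same order of comparisons. Serpinb2, which encodes plasminogen activator inhibitor 2 (chr1:107511423-107535478, plus strand), had 2 and 0, 0 and 4, and 0 and 2 counts. No difference was detectable at this depth for Serpinb2, whose exons overlap those of the polymorphic pseudogene Serpinb10 on the same strand.

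Across the 13355 genes tested, the quasi-likelihood F-test of edgeR with Benjamini-Hochberg adjustment was used with a false discovery rate (FDR) of 0.05 or less. For TGF-β against DMSO, 41.5% of all genes were called (21.8% higher and 19.7% lower), and 2 of the 5 genes were called, Plau higher and Plgrkt lower. For TGF-β + 2APB against DMSO, the background was 52.7% (25.6% higher and 27.2% lower), and 5 of 5 were called, with Plau and Plaur higher and Plat, Plgrkt and Serpine2 lower. For TGF-β + 2APB against TGF-β, 17.5% of all genes were called (6.58% higher and 10.9% lower), and 4 of 5 were called, with Plau and Plaur higher and Plat and Plgrkt lower. Because the list was drawn up with these contrasts known, nothing is read from the distance between these counts and the background. The median log2 fold change of the 5 genes was -0.07, -0.81 and -0.43, beside -0.01, -0.003 and -0.004 over all genes tested. The comparisons share libraries and are not independent of each other.

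The calls on top of TGF-β depended on which libraries were fitted, and so did the calls over all genes. Without either DMSO or either TGF-β + 2APB replicate, fewer genes were called over all genes tested. This held for TGF-β + 2APB against TGF-β and against DMSO. With the 4 libraries compared only, calls over all genes against TGF-β went from 2335 to 860. For TGF-β + 2APB against TGF-β, 0 of the 5 genes were called by edgeR when either DMSO replicate or either TGF-β + 2APB replicate was left out, or when only the 4 libraries compared were fitted. DESeq2 on all libraries called 5 for the same comparison. The list was drawn up with these contrasts known, so this count supports nothing further. Without the first or the second DMSO replicate, or without the second TGF-β + 2APB replicate, 3 genes remained called for TGF-β + 2APB against DMSO, and these were Plau, Plat and Plgrkt each time. Plau and Plgrkt were called in 13 of 13 alternatives for both comparisons with DMSO.

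Per kilobase of exon, Plaur was the most abundant of the 6 genes in each group, at 47.4 ± 1.79 CPM per kb (counts scaled to library size, per kilobase; SD, n = 2) with DMSO, 49.7 ± 3.80 with TGF-β and 62.7 ± 1.61 with TGF-β + 2APB. By this scale it stood 920th, 874th and 644th among 12696 genes. With DMSO, Plgrkt followed at 22.3 ± 1.68, Plat at 11.9 and 12.1 in its 2 libraries, Plau at 0.791 ± 0.0437 and Serpine2 at 0.129, and no neighbours in that order overlapped. With TGF-β, Plat at 9.84 ± 1.11 stood above Plgrkt at 7.99 ± 0.0978, with Plau at 4.20 ± 0.715 below both. With TGF-β + 2APB, Plau at 7.12 ± 0.844 and Plat at 6.85 ± 0.386 overlapped. Plgrkt at 5.93 ± 0.746 was lowest of the 3 in both libraries, with its higher library at 6.46 beside 6.52 for the lower Plau library, and Serpine2 was at 0.0453. The ratio of Plaur to Plau fell from 64.0 and 56.2 with DMSO to 11.1 and 12.7 with TGF-β and to 7.98 and 9.79 with both agents.

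The order depended on the length used. With the longest transcript as the length, Plgrkt was at 83.2 and Plaur at 61.8 CPM per kb with DMSO, so that Plgrkt stood first there. With TGF-β the order was Plaur at 64.7, Plgrkt at 29.8, Plat at 15.2 and Plau at 4.24. With TGF-β + 2APB it was Plaur at 81.7, Plgrkt at 22.1, Plat at 10.6 and Plau at 7.19. The direction of each gene between groups does not depend on its length.

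**Figure D2:**
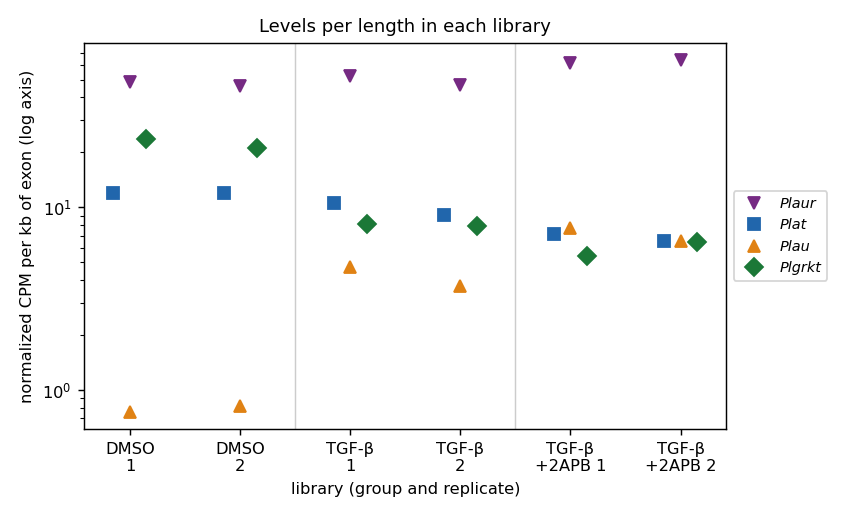
Level of Plaur, Plat, Plau and Plgrkt in each library, in CPM per kb of exon on a logarithmic vertical axis, by group on the horizontal axis. Plau, Plat and Plgrkt came together between 5.93 and 7.12 on average with TGF-β + 2APB, while Plaur stayed above them in each library.

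The other genes of the system were taken from a list of 31 genes set by their roles, of which 30 were in the table and 21 were tested. This list too was drawn up with earlier results of these data known. Nothing is therefore read from the distance between its counts and the background. For TGF-β against DMSO, 15 of the 21 were called (3 higher and 12 lower), beside 41.5% of all genes tested (21.8% higher and 19.7% lower). With both agents against DMSO, 16 were called (5 higher and 11 lower), beside 52.7% (25.6% higher and 27.2% lower). Between both groups with TGF-β, 6 were called (3 higher and 3 lower), beside 17.5% (6.58% higher and 10.9% lower). Their median log2 fold change was -0.55, -0.53 and -0.01, beside -0.01, -0.003 and -0.004 over all genes tested. Cpb2, St14, Spint1, Fga and Fgg were under the minimum in at least 1 group, and without these 5 the calls were 11, 11 and 4 of 16. These 5 passed the filter, a mean over all libraries, through the groups where they were higher, and their FDRs carry that limit. The zymogen itself was nearly unread, since Plg had 0 to 2 counts in each library.

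Serpini1, which encodes neuroserpin, an inhibitor of tissue plasminogen activator, rose with TGF-β by 3.30 on the log2 scale (SE 0.36, edgeR FDR 0.00134), and by 2.80 with both agents (FDR 0.00147). The difference of Serpini1 between both groups with TGF-β was -0.50 (FDR 0.334).

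Both tested inhibitors of plasmin or of fibrinolysis fell. Serpinf2, which encodes α2-antiplasmin, changed by -5.45 with TGF-β (edgeR FDR 0.000314) and by -5.88 with both agents (FDR 0.000165). Cpb2, the carboxypeptidase that removes plasminogen-binding lysines from fibrin, had 134 and 108 counts with DMSO and 0 in the other 4 libraries. Against a floor of 3 counts per library, Cpb2 was at least 40.3-fold lower with TGF-β (FDR 0.00203) and at least 41.0-fold lower with both agents (FDR 0.00129). The fibrinogen chains Fga, Fgb and Fgg, precursors of the substrate of plasmin, all fell with TGF-β, and Fgb changed by -4.99 (FDR 0.000402). With 2APB on top, Fgb changed by a further -4.12 (FDR 0.00652), and Fga, at 110 and 52 counts with TGF-β, was at 0 in both libraries with both agents, at least 27.2-fold lower against the same floor (FDR 0.00712).

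Of the other surface proteins that bind plasminogen, S100a10 was called with both agents. Of Anxa2, S100a10 and Eno1, 0 of 3 were called by edgeR for TGF-β against DMSO, 0 of 3 by DESeq2, and 0 of 3 passed an unadjusted p of 0.05. Without the first TGF-β replicate Anxa2 was called (FDR 0.0136), and without the second S100a10 was (FDR 0.0396). Their log2 fold changes were -0.04 for Anxa2 (FDR 0.758), 0.15 for S100a10 (FDR 0.268) and -0.05 for Eno1 (FDR 0.837), the last uncertain since reads could be split with its related copy Eno1b, listed at 5994 to 8756 counts. With both agents against DMSO, edgeR called neither Anxa2 (-0.28, FDR 0.0672) nor Eno1 (-0.42, FDR 0.0937). DESeq2 called Anxa2 there (FDR 0.0467), and edgeR called both with only the 4 libraries compared (FDR 0.00115 and 0.0459). S100a10, the partner of Anxa2, had a log2 fold change of -0.53 with both agents against DMSO (FDR 0.00607) and of -0.68 against TGF-β (FDR 0.011). These calls of S100a10 were lost without the first TGF-β + 2APB replicate (FDR 0.058 and 0.071), and the first also without the first DMSO replicate (FDR 0.0521).

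Of the 7 tested genes listed as clearance receptors or their partners, 6 were called lower with TGF-β than with DMSO, beside 19.7% of all genes tested. Not all of the 7 clear complexes of activator and inhibitor themselves. The calls of Lrp2, Vldlr, Igf2r and Lrpap1 were lost when either DMSO replicate was left out (FDR 0.0547 to 0.147). Lrp1, the endocytic receptor for such complexes, had 22531 and 21515 normalized counts in the DMSO libraries, 14992 and 12784 under TGF-β, and 26794 and 29878 when 2APB was added. Lrp1 thus changed by -0.67 with TGF-β (edgeR FDR 0.00466) and was 2.04-fold higher with TGF-β + 2APB than with TGF-β (FDR 0.00501). Against DMSO, its log2 fold change with both agents was 0.36 (FDR 0.0295), a call that was lost when any 1 library of those groups was left out (FDR 0.0707 to 0.169). Sorl1, a sorting receptor that also binds complexes of urokinase and its inhibitor, changed by -1.56 (FDR 0.00622) and -1.62 (FDR 0.00395) against DMSO.

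Among the proteases that activate pro-urokinase, St14, which encodes matriptase, had 4 and 2 counts in the DMSO libraries, 44 and 38 under TGF-β, and 134 and 156 when 2APB was added. St14 rose by 3.72 (edgeR FDR 0.00129) and 5.51 (FDR 0.000208) against DMSO, and by 1.80 over TGF-β (FDR 0.018). Spint2, an inhibitor of such proteases, changed by -1.33 with TGF-β (FDR 0.000684) and by -1.56 with both agents (FDR 0.000238). Spint1, the related inhibitor, was called higher with both agents against DMSO (FDR 0.0423), but had 14 counts in the first replicate and 138 in the second, which held the leukocyte markers, and it was not tested without the second replicate. The call was also lost without the first (FDR 0.192) or the second (FDR 0.128) DMSO replicate.

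**Figure D3:**
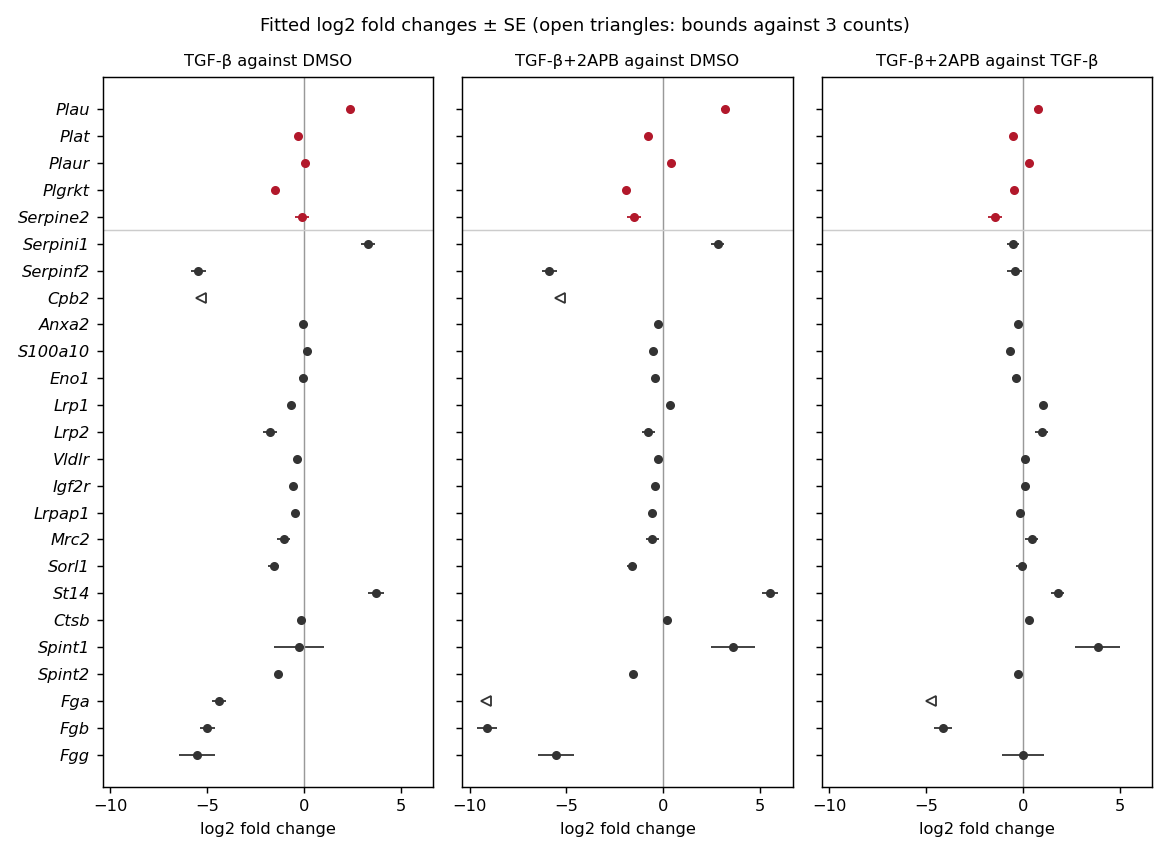
Fitted log2 fold changes with their standard errors (shared horizontal axis) of the 5 tested genes of the list (red) and of 20 other tested genes of the system (black), 1 row a gene and 1 panel a comparison. Open triangles are bounds against 3 counts, and Cpb2 has no mark where both groups were at 0. Plau is furthest to the right among the red points, at 2.41, 3.17 and 0.76.

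The genes whose profiles lay closest to those of the members were found by Euclidean distance between centred log2 CPM over the 6 libraries. Plau was close to Usp43 (0.164) and Vash1 (0.308), and for Plgrkt the nearest genes were Stap2 (0.113), Fzd5 (0.203) and Spire2 (0.208). Plat was closest to Cmc2 (0.0908), Arhgef10 (0.127) and Trappc12 (0.134), and Plaur to Lemd2 (0.0561), Rtca (0.0602) and Slc16a13 (0.0692). Serpine2 had no gene nearer than 0.392 (Zmynd15). The distance scales with how far a profile moves, so distances are not compared between members.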

How the data were processed

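The authors sequenced oligo-dT-selected RNA as single-end reads, checked them with FastQC 0.11.2, aligned them with TopHat 2.0.13 and counted them on genes with featureCounts. The deposited values are counts per gene for 6 libraries, all of them even numbers. The labels name mm10, the paper's methods name hg19, and the symbols are those of mouse genes. The annotation, the strand setting and the treatment of reads with several alignments are not given in the sources used here. Spreadsheet dates had replaced 25 gene names.

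Counts were scaled by TMM and tested in edgeR 4.0.16 (R 4.3.3; quasi-likelihood F-test, all 6 libraries in 1 fit, group as the only term). Genes with a mean of 20 or more normalized counts (13355) were tested, with Benjamini-Hochberg adjustment over all of them and a threshold of 0.05. The standard error (SE) of a difference was its size over the root of its F statistic. The scripts were tested on simulated data. The members, gene lists and motifs were chosen with earlier results of these data known. The genes named are the members, the listed genes of the system, the markers and, for each tested member, its nearest genes by profile. Gene positions and lengths come from GENCODE vM21 (GRCm38), which matched 17518 of the entries. A gene of the list that was not in the table (A2m) was not analysed here. Genes that the rule names but the text does not are not reported here, although the counts over the list include them. Alternatives were other scalings, no filter on low counts, halved counts, a replicate block, the 4 libraries compared only, each library left out, a threshold of 0.01, another gene length, and DESeq2 1.42.0.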

Additional observations from a re-analysis of the deposited data

How the results depend on the processing

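No log2 fold change that was called changed its direction under any alternative run. Members called went from 5 to between 3 and 5 for TGF-β + 2APB against DMSO when 1 library was left out, and from 4 to between 0 and 5 for TGF-β + 2APB against TGF-β. For the latter, 2 were called without the filter on low counts, 2 with a replicate block and 0 with the 4 libraries compared only. A threshold of 0.01 left 0, whereas DESeq2 at 0.05 called 5. For TGF-β against DMSO, 2 or 3 members were called throughout. With halved counts, 2 members were called for TGF-β against DMSO. The same setting called 5 for TGF-β + 2APB against DMSO and 4 for TGF-β + 2APB against TGF-β. Of the other genes of the system, 11 to 17, 10 to 18 and 6 to 9 were called with 1 library left out, the 10 without the first DMSO replicate. A lone sample left in a group is assumed to vary like the other groups. Deviations of same-numbered replicates correlated between groups at 0.147, -0.458 and -0.255. These values cannot show whether the samples were prepared in pairs, which the sources used here do not state. With the replicate block, 15, 15 and 5 of the other genes of the system were called. Lrp1 was then lost for TGF-β + 2APB against DMSO (FDR 0.0544) and St14 for TGF-β + 2APB against TGF-β (FDR 0.0526). Over all genes, calls for TGF-β + 2APB against TGF-β were 2335, but 1343 with the replicate block, 860 with the 4 libraries only, 3646 by DESeq2 and 834 to 5405 with 1 library left out; the cause was not tested. The depth did not allow a statement on Serpinb2 or Plg, and with 2 replicates per group each spread rests on 1 difference.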
